A study of Mus musculus with 3 samples.

Results

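The neurotrophin ligands and receptors described here are 6 genes of 32531 in the count tables: the ligand genes Bdnf and Ntf3, the Trk receptor genes Ntrk2 and Ntrk3, the p75 receptor gene Ngfr and the sortilin gene Sort1. They were chosen by name, as members of one signalling family, and each had a row in all 3 libraries. The libraries hold RNA bound to tagged ribosomes, taken from the dentate gyrus of adult mice (strain C57BL/6J) of the line Penk-EGFP/Rpl10a (NIDA186), in which the regulatory DNA of the proenkephalin gene Penk drives a fluorescent tag on the ribosomal protein Rpl10a. Tagged ribosomes were pulled down with antibodies against the tag (translating ribosome affinity purification, TRAP). All 3 libraries are untreated immunopurified samples of 1 group, replicates 1 to 3, and the labels do not say whether they came from separate animals, so their spread may be technical in part.

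Neurotrophins are secreted as precursors that are cut to mature dimers. Mature BDNF, the product of Bdnf, binds the receptor tyrosine kinase TrkB, made from Ntrk2, and neurotrophin 3, made from Ntf3, binds mainly TrkC, made from Ntrk3. Both kinases signal through adaptor proteins to the Ras-MAPK, PI3K-Akt and phospholipase C branches. The p75 receptor binds all neurotrophins and, together with sortilin, their uncut precursors, and sortilin also sorts BDNF precursor inside the cell. In the hippocampus, Bdnf is transcribed in response to neuronal activity, and the granule cells of the dentate gyrus carry BDNF into their mossy fibre axons.

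Bdnf is read from several alternative starts, whose transcripts share 1 main coding exon. The set of RefSeq starts used here (build GRCm38.p6) held 7 for Bdnf, 2 for Ntf3 and 1 each for Ntrk2 and Ngfr. Starts of Ntrk3 and Sort1 were not in this set, so that 4 of 6 members were matched. The counts are summed over all transcripts of a gene and do not tell these starts apart. Shown are the 250 bases before the first Bdnf start (chr2:109674450-109674699, plus strand, before the gene), before a start farther downstream (chr2:109692186-109692435, plus strand, inside the Bdnf gene and outside its annotated exons) and before the Ntrk2 start (chr13:58806319-58806568, plus strand, before the gene). The downstream one is shown because it is the 1 of 7 Bdnf windows that holds the letters CGTCA on either strand, the core of the site bound by the activity-regulated factor CREB; these letters are in capitals. The other two are shown for comparison, as the most upstream Bdnf window and that of its receptor gene.
Bdnf, first start: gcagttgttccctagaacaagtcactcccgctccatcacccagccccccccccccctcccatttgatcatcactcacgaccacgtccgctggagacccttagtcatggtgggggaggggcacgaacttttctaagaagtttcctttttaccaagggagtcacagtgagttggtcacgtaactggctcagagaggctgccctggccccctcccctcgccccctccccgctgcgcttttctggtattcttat
Bdnf, downstream start: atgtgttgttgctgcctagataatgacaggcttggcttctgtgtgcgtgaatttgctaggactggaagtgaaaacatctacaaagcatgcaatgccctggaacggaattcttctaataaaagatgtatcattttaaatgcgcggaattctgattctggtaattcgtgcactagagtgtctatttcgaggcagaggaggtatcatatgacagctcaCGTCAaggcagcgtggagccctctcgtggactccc
Ntrk2: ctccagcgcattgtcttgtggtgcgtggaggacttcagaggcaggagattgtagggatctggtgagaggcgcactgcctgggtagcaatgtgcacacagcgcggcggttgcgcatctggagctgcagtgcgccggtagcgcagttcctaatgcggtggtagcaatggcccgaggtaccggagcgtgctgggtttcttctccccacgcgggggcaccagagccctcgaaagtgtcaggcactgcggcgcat
CGTCA on either strand stood in 17.8% of 32851 promoter windows of the same length, and the full palindrome TGACGTCA, which contains it, in 1.55%. None of the 250-base windows of Ntf3, Ntrk2 and Ngfr held CGTCA.

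Depth differed between the libraries, at 5348761, 19195559 and 11059982 counts on genes in replicates 1 to 3. Levels are given as CPM, which sets counts to one library size by trimmed mean (TMM) factors, and the median tested gene stood at 28.1, 32.0 and 31.4 CPM. By counting error alone, a count of 0 allowed up to 3 counts, or 0.707, 0.131 and 0.257 CPM. Dentate granule cell markers were present: Prox1 had 2792, 10869 and 3047 counts, and the summed level of 12 listed markers was 5252, 3566 and 2407 CPM, with 1 marker (C1ql3) at 0 in replicate 1. Markers of other cell types were present too, and levels were not set against RNA of the whole tissue, so the cells behind a level were not identified; more cells of a type and more RNA per cell cannot be told apart.

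Of the 2 ligand genes, Bdnf was found in all 3 libraries and Ntf3 in 1. Bdnf (ENSMUSG00000048482.14; here and for the other genes, GRCm38 coordinates with GENCODE annotation: chromosome 2, 109674700 to 109727007, plus strand) had 61.5 CPM in replicate 1 (95% exact Poisson interval 54.3 to 69.5), 60.3 CPM in replicate 2 (57.2 to 63.6) and 8.90 CPM in replicate 3 (7.27 to 10.8), from 261, 1382 and 104 counts. Replicates 1 and 2 lay close together, with a ratio of 1.02 (95% interval 0.890 to 1.16), and replicate 3 lay well below both. Replicate 1 was higher than replicate 3 by 6.92-fold (5.49 to 8.77) and replicate 2 by 6.78-fold (5.55 to 8.36). These intervals cover counting error alone, because reads copied by PCR do not stand for separate molecules.

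The mean of Bdnf was 43.6 ± 30.0 CPM (SD, n = 3). Its level, the log2 difference from the median gene among 8510 tested in the same library, was 1.13, 0.91 and -1.80 in replicates 1 to 3. The mean level of 0.080 (SE 0.72, adjusted p = 0.995, limma TREAT against a log2 difference of 1, Benjamini-Hochberg) did not pass the threshold of 0.05. Its sign turned to -0.43 without replicate 2, and it was 1.20 without replicate 3. Among tested genes, 65.5% lay lower than Bdnf in replicate 1, 66.9% in replicate 2 and 22.3% in replicate 3. The granule cell marker sum was likewise lowest in replicate 3, at 2407 CPM, against 5252 and 3566 CPM in replicates 1 and 2. Without Sema5a, its highest gene, it was 2064, 2266 and 1232 CPM in replicates 1 to 3. Of its members, C1ql3, Calb1, Tdo2, Dsp and Lct were instead lowest in replicate 1. The endothelial and mural marker sum was lowest in replicate 3 too (441, 1049 and 349 CPM in replicates 1 to 3), though not without Rgs5. The part of these cells in the Bdnf values was not tested. An annotated antisense gene, Gm45346, shares 896 exonic bases with Bdnf, and the strand setting of the counting was not given, so reads of that stretch cannot be assigned to a strand.

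Ntf3 (ENSMUSG00000049107.13, chromosome 6, 126101412 to 126166910, minus strand) had 337 counts in replicate 2, or 14.7 CPM (95% interval 13.2 to 16.4), and 0 counts in replicates 1 and 3. Against 3 counts in the other library, replicate 2 was at least 20.8-fold higher than replicate 1 and at least 57.3-fold higher than replicate 3. Replicate 2 alone held Ntf3, at a level above that of 3 counts in both other libraries, a bound that covers counting error alone. Of 4120 other genes within 2-fold of its level in replicate 2, 110 (2.67%) likewise had under 3 counts in both other libraries, and 1039 (25.2%) had under 3 counts in at least 1 of them. The endothelial and mural marker sum was also highest in replicate 2, at 441, 1049 and 349 CPM in replicates 1 to 3, and 70.5, 302 and 282 CPM without its highest gene Rgs5. The pan-neuronal sum, at 8831, 15000 and 11041 CPM, was highest there too, though not without Snap25. The granule cell sum without Sema5a (2064, 2266 and 1232 CPM) also peaked in replicate 2. So did the CA3 and mossy cell sum without Dkk3 (194, 469 and 374 CPM). With these genes the 2 sums were highest in replicates 1 and 3, in that order. The part of these cells in the Ntf3 values was not tested. Ntf3 did not pass the filter on low counts and was not tested against the median gene.

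**Figure D1:**
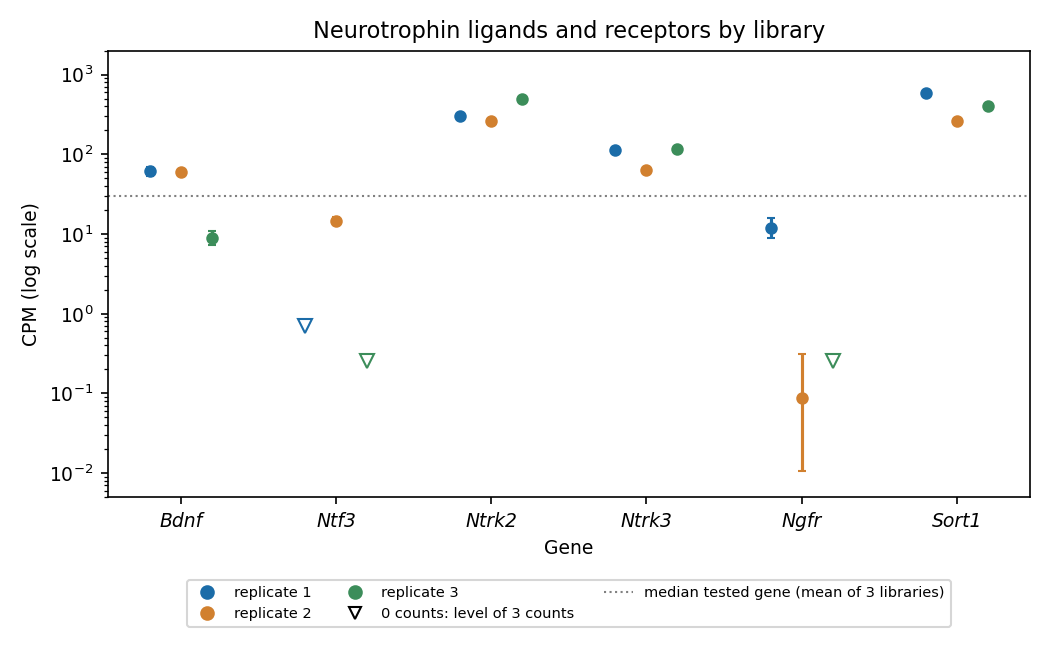
Level of each member in each library in CPM (log axis), with 95% exact Poisson intervals; open triangles mark a count of 0, drawn at the level of 3 counts, and the dotted line is the median tested gene. Ntrk2 and Sort1 lay between 263 and 597 CPM in every library, Bdnf fell to 8.90 CPM in replicate 3, and Ntf3 and Ngfr were each found above 10 CPM in 1 library.

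The Trk receptor genes were found in all 3 libraries, Ntrk2 above Ntrk3 in each, also per kb of exon. Ntrk2 (ENSMUSG00000055254.15, chromosome 13, 58806569 to 59133970, plus strand) had 307 CPM in replicate 1 (95% interval 291 to 325), 264 CPM in replicate 2 (257 to 271) and 495 CPM in replicate 3 (482 to 507), from 1304, 6042 and 5780 counts. Replicate 3 was the highest, 1.61-fold over replicate 1 and 1.87-fold over replicate 2. Of all tested genes, 91.2, 93.2 and 96.5% lay lower in replicates 1 to 3. The mean was 355 ± 123 CPM (SD, n = 3), and the level of 3.49 (SE 0.43, adjusted p = 4.5e-05, limma) passed the test, with 3.45, 3.04 and 3.97 in replicates 1 to 3. The summed level of 12 astrocyte markers had the same order of libraries, at 3287, 1673 and 3812 CPM in replicates 1 to 3, but Slc1a2 made up most of it (2874, 1228 and 2796 CPM). The other 11 markers summed to 413, 444 and 1016 CPM, highest in replicate 3 like Ntrk2 and lowest in replicate 1 unlike it, with Gja1 at 0 in replicate 1. The sum of 9 oligodendrocyte markers, at 886, 768 and 1232 CPM, also had the order of Ntrk2. Sums highest in replicate 3 were not limited to these glia. The pan-neuronal sum without Snap25 was 3514, 4129 and 5703 CPM, though with Snap25 it was highest in replicate 2. The CA3 and mossy cell sum was 377, 888 and 985 CPM, though not highest in replicate 3 without Dkk3. Both were lowest in replicate 1, unlike Ntrk2. Astrocytes are known to make a TrkB form without the kinase. The part of any of these cell types in the Ntrk2 values was not tested. GENCODE lists 10 transcripts of Ntrk2, 7 of them protein-coding, with products of 466 to 821 residues, and the gene counts pool them all.

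Ntrk3 (ENSMUSG00000059146.12, chromosome 7, 78175959 to 78738012, minus strand) had 113 CPM in replicate 1 (95% interval 103 to 123), 63.3 CPM in replicate 2 (60.1 to 66.6) and 116 CPM in replicate 3 (110 to 122), from 478, 1450 and 1356 counts. Replicates 1 and 3 overlapped within counting error, and replicate 2 was lower, with replicate 3 at 1.83-fold its level (1.70 to 1.97). The oligodendrocyte marker sum was likewise lowest in replicate 2, as was the astrocyte sum with Slc1a2 but not without it. The GABAergic interneuron sum was lowest there too (521, 337 and 459 CPM in replicates 1 to 3), but not without Gad2. The part of these cells in the Ntrk3 values was not tested. The mean was 97.3 ± 29.5 CPM (SD, n = 3). All 3 libraries lay above the median gene, by 2.0, 0.98 and 1.88 on the log2 scale, but the level of 1.62 (SE 0.50, adjusted p = 0.308, limma) did not pass the test. It passed without replicate 1 (2.11, adjusted p = 0.0264), where 19.1% of all tested genes lay above, and missed the threshold without replicate 2 or 3 (adjusted p = 0.379 and 0.477).

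The p75 receptor gene Ngfr (ENSMUSG00000000120.6, chromosome 11, 95568818 to 95587735, minus strand) was found mainly in 1 library. It had 51 counts in replicate 1, or 12 CPM (95% interval 8.95 to 15.8), 2 counts in replicate 2 (0.0873 CPM, 0.0106 to 0.315) and 0 in replicate 3. Replicate 1 stood above both others, with intervals that do not overlap. It was at least 46.8-fold higher than replicate 3, taken at 3 counts, and its ratio to replicate 2 was 138 (95% interval 36.2 to 1168). Of 2539 other genes within 2-fold of its level in replicate 1, 65 (2.56%) had under 3 counts in both other libraries, a share close to that seen beside Ntf3. Under 3 counts in at least 1 of the other libraries were found for 236 (9.3%), against 25.2% beside Ntf3. The granule cell marker sum was also highest in replicate 1, but Sema5a alone gave 3188 CPM of it there, and the other 11 markers were highest in replicate 2. The part of granule cell RNA in the Ngfr values was not tested. Ngfr did not pass the filter on low counts.

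Sort1, the gene of the sorting receptor sortilin (ENSMUSG00000068747.14, chromosome 3, 108284082 to 108361511, plus strand), had 597 CPM in replicate 1 (95% interval 574 to 621), 263 CPM in replicate 2 (257 to 270) and 404 CPM in replicate 3 (392 to 415), from 2532, 6030 and 4719 counts. The order of libraries differed from that of Ntrk2: replicate 1 was highest for Sort1, at 2.27-fold replicate 2. The sum of 10 GABAergic interneuron markers had the order of Sort1, at 521, 337 and 459 CPM in replicates 1 to 3. Without Gad2, its highest gene, it was 400, 266 and 262 CPM, still highest in replicate 1, and its part in the Sort1 values was not tested. The mean was 421 ± 168 CPM (SD, n = 3) and the level 3.71 (SE 0.43, adjusted p = 1.85e-05, limma), above 3 in 3 of 3 libraries. An antisense gene, Gm12523, shares 338 exonic bases with Sort1.

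Of the 4 members that passed the filter, 2 (Ntrk2 and Sort1) lay above the median gene and 0 below, by limma TREAT with adjusted p. Of all 8510 tested genes, 14.1% lay above and 5.22% below. By the edgeR version of the test the counts were also 2 and 0, where 17.0% of all tested genes lay above. A gene passes the filter in effect only if every library holds it, so these 4 genes do not stand for the 2 members that were left out, and 2 of 4 against 14.1% is given as a description.

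Levels of different genes were compared per kb of exon, since longer transcripts give more reads. The union of annotated exons measured 6.217 kb for Bdnf, 1.714 kb for Ntf3, 19.292 kb for Ntrk2, 30.17 kb for Ntrk3, 3.446 kb for Ngfr and 7.569 kb for Sort1. On this scale Sort1 was highest at 55.7 ± 22.1 CPM per kb (SD, n = 3). Ntrk2 followed at 18.4 ± 6.35, Bdnf at 7.01 ± 4.83, Ntrk3 at 3.23 ± 0.978, Ntf3 at 2.86 ± 4.96 and Ngfr at 1.17 ± 2.01. Neighbours in this order were told apart only where the sign of the log2 difference was the same in 3 of 3 libraries and its mean exceeded its SD, since with 3 libraries the smallest p of an exact sign-flip test is 0.25.

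Sort1 exceeded Ntrk2 by 1.57 on the log2 scale (SD 0.65), with 2.31, 1.35 and 1.06 in replicates 1 to 3, and so met that rule. With the length of the longest transcript, 6.836 kb for Sort1 and 8.744 kb for Ntrk2, the difference was 0.58 against the same SD and no longer met it. The other 4 neighbouring pairs did not differ beyond their spread. Ntrk2 exceeded Bdnf by 0.68, 0.49 and 4.14 (mean 1.77, SD 2.05), the large value belonging to replicate 3. Bdnf minus Ntrk3 was 1.41, 2.21 and -1.40 (mean 0.74, SD 1.90), and thus turned in replicate 3. Ntrk3 minus Ntf3 averaged 2.92 (SD 4.30) and Ntf3 minus Ngfr 0.89 (SD 6.12), differences that rest on counts at or near 0 and on the prior count.

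**Figure D2:**
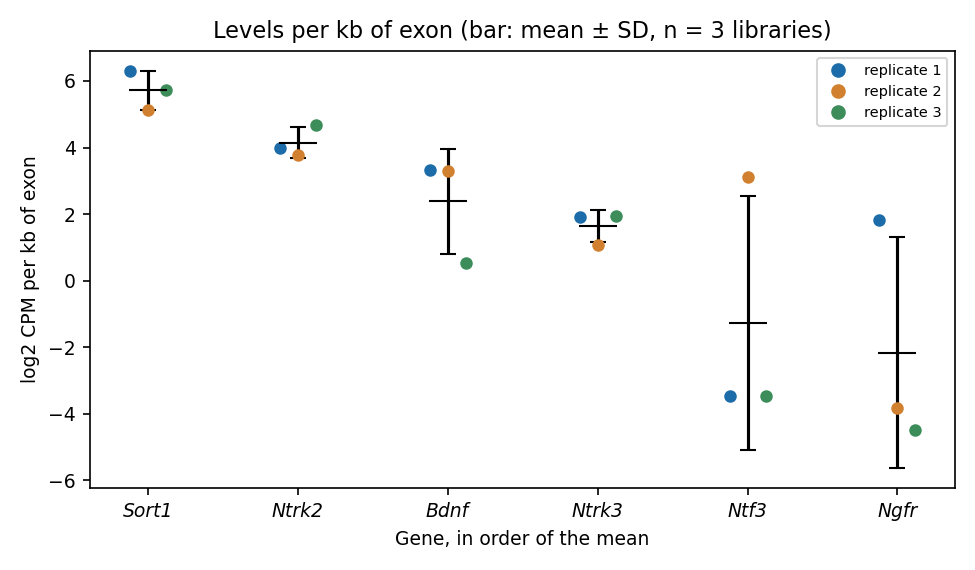
Level of each member as log2 CPM per kb of union exon length, in order of the mean; points are the 3 libraries and bars the mean ± SD (n = 3). Sort1 and Ntrk2 led in every library, while the bars of Bdnf, Ntf3 and Ngfr spanned several log2 units, each with 1 library apart from the other two.

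Outside that order, Ntrk2 exceeded Ntrk3 by 2.51 on the per-kb log2 scale (SD 0.36), higher in 3 of 3 libraries, with a linear ratio of 4.27, 6.52 and 6.67 in replicates 1 to 3. With the longest transcript of each gene the ratio was 6.15, 9.39 and 9.60. Sort1 exceeded Ntrk3 by 4.08 (SD 0.30), the narrowest spread of the 15 pairs. The ratio of Ntrk2 to its ligand gene Bdnf was 1.61 and 1.41 in replicates 1 and 2 and 17.9 in replicate 3. Against the median gene on the per-kb scale, Sort1 alone of the 4 tested members passed, at 3.12 (SE 0.45, adjusted p = 0.00253, limma), where 9.75% of 7908 genes lay above and 3.76% below. Ntrk2, which had passed without length correction, lay at 1.55 (SE 0.50, adjusted p = 0.410), and at 2.24 with the longest transcript (adjusted p = 0.0572). Bdnf lay at -0.22 and Ntrk3 at -0.96 (adjusted p = 0.998 and 0.868).

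As shares of the summed CPM per kb of the 4 receptor genes, Sort1 made up 77.3, 68.8 and 64.4% in replicates 1 to 3. Ntrk2 made up 15.6, 27.0 and 31.0%. Ntrk3 held 3.66, 4.15 and 4.64%, a narrow range, and Ngfr 3.42, 0.0501 and 0%. With the longest transcript as length, Ntrk2 took 26.7, 41.9 and 46.5% and Sort1 66.3, 53.5 and 48.6%, so the split between these 2 genes depended on the length used, whereas Ntrk3 stayed between 4.34 and 4.85%.

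**Figure D3:**
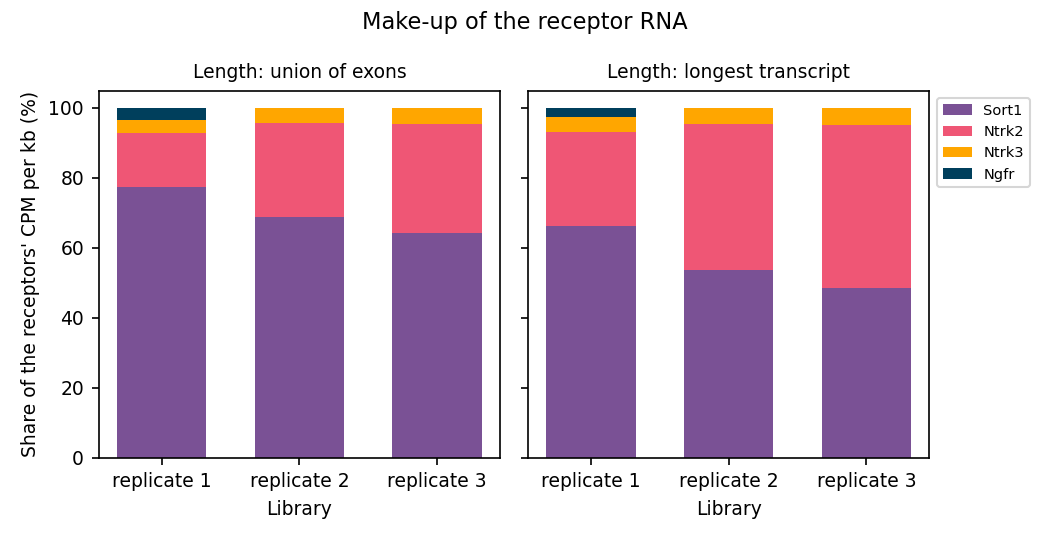
Share of each receptor gene in the summed CPM per kb of Sort1, Ntrk2, Ntrk3 and Ngfr, by library, with the union of exons (left) and the longest transcript (right) as length. Sort1 was the largest share in every bar, from 48.6 to 77.3%, and Ngfr was visible in replicate 1, at 3.42% with the union of exons.

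All 6 members varied between the libraries beyond counting error (Poisson chi-square test on the 3 counts, adjusted p from 3.96e-293 for Sort1 to 3.86e-51 for Ntf3). So did 96% of 15405 genes with at least 10 counts in total, so this does not set the members apart. Without replicate 3 Bdnf no longer varied beyond counting error (adjusted p = 0.887), nor did Ntrk3 without replicate 2 (adjusted p = 0.240). On the log2 CPM scale the SD between libraries was 0.47 for Ntrk2, 0.49 for Ntrk3, 0.59 for Sort1 and 1.59 for Bdnf. Among tested genes within 1 log2 unit of the member's mean, the median SD was 0.62 for Ntrk2, 0.75 for Ntrk3, 0.60 for Sort1 and 1.0 for Bdnf. A smaller SD than the member's was found in 31.5% of such genes for Ntrk2, 27.3% for Ntrk3, 47.8% for Sort1 and 78.3% for Bdnf. The 3 receptor genes thus lay at or below the typical spread of genes at their level, and Bdnf above it.

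**Figure D4:**
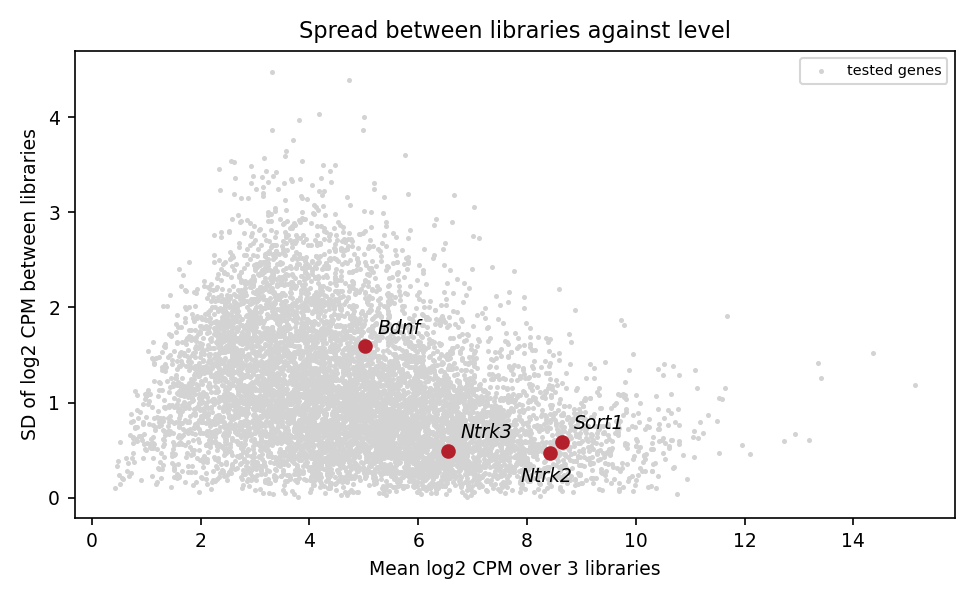
SD of log2 CPM between the 3 libraries against mean log2 CPM, for 8510 tested genes (grey) and the 4 tested members (red). Bdnf lies at an SD of 1.59, while Ntrk2, Ntrk3 and Sort1 lie between 0.47 and 0.59.

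For each tested member, the 2 genes with the most similar pattern were taken as those with the smallest root mean square difference of mean-centred log2 CPM over the 3 libraries, among tested genes within 1 log2 unit of its mean. Nearest to Bdnf were Tox (0.06), with 61.1, 62.6 and 8.30 CPM in replicates 1 to 3, and 1700021K19Rik (0.09), with 38.0, 32.1 and 5.13 CPM. Of 3042 candidates only 3 came within 0.1 of Bdnf. Nearest to Ntrk2 were Spon1 (0.04) and Vps13b (0.05), nearest to Ntrk3 were Atf1 (0.02) and Pknox2 (0.03), and nearest to Sort1 were Syn2 (0.01) and Birc6 (0.02). With 3 libraries such a match is easily met: 15 of 816 candidates came within 0.1 of Ntrk2, 36 of 2193 of Ntrk3 and 23 of 677 of Sort1.

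Genes around the receptors were read with 8 lists, which hold 150 genes outside the members; 149 had a row and 103 passed the filter. As for the members, the filter in effect keeps only genes that every library holds. Counts of genes below and list medians therefore do not stand for the untested genes. Above the median gene lay 25 of 103, and 2 lay below, against 14.1 and 5.22% of all tested genes. Per kb of exon, 15 of 102 lay above and 4 below, against 9.75 and 3.76%. Without replicate 1 the counts were 40 above and 5 below, of 115 tested, where 19.1% of all tested genes lay above. Without replicate 2 they were 17 above and 5 below, of 103 tested, where 11.4% of all lay above.

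Among the listed genes of neurotrophin precursor processing and release, 1 of 7 tested lay above and 0 below, with a median level of 1.61 (all tested genes, -0.17). It was Syt4, a synaptotagmin that regulates BDNF release, at 151 ± 31.2 CPM (SD, n = 3) and a level of 2.28 (adjusted p = 0.0277, limma). Leaving out replicate 2 ended that call (adjusted p = 0.0957), as did leaving out replicate 3 (0.107). Cpe, carboxypeptidase E, which takes part in sorting BDNF precursor, had 171, 3908 and 3000 counts and did not pass (level 1.99, adjusted p = 0.130), whereas per kb it did (2.94, adjusted p = 0.0103), except when replicate 2 or replicate 3 was left out (0.0733 and 0.117). Cadps2, which promotes dense-core vesicle release, had 111 ± 67.8 CPM and did not pass (adjusted p = 0.340). Mmp9, a secreted protease, had 0 counts in each library. Per kb, 2 of 7 lay above and 1 below. The 1 below was Furin, chosen after its values were seen, with 44, 35 and 45 counts. Its per-kb level was -3.75 (adjusted p = 0.0111, limma), but it did not pass without length correction (adjusted p = 0.0566).

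Of the VPS10 relatives of sortilin and the receptor partners, 1 of 10 tested lay above and 0 below, with a median level of 0.90. Kidins220, a scaffold protein bound by Trk receptors and p75, reached 370 ± 165 CPM, from 825, 9021 and 6094 counts, and passed with and without length correction (adjusted p = 0.0117 and 5.39e-05, limma). The per-kb call ended without replicate 2 (0.0989) or replicate 3 (0.116). Lingo1, a partner of p75 in the Nogo receptor complex, had 109 ± 21.5 CPM, and Maged1, which binds p75, 108 ± 75.1 CPM. Neither passed (adjusted p = 0.178 and 0.543). Sorcs1, a relative of Sort1, was the lowest member, with 0, 171 and 28 counts.

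The adaptors that link Trk receptors to Ras were present, with 3 of 15 tested above, 0 below and a median level of 0.16. The exchange factor genes Sos2 and Sos1 reached 248 ± 176 and 201 ± 57.5 CPM, and the docking protein gene Frs2 193 ± 56.9 CPM. Their levels were 2.77, 2.68 and 2.62 (adjusted p = 0.0041, 0.00349 and 0.00511, limma). The Sos1 call ended without replicate 2 (adjusted p = 0.0951), and none of the 3 passed per kb. Sh2b2 had 0, 5 and 0 counts.

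In the Ras-MAPK and PI3K-Akt branches, 7 of 22 tested genes lay above and 1 below, with a median level of 1.40, and 6 of 22 above and 0 below per kb. The kinase gene Braf led with 777 ± 109 CPM and a level of 4.66 (adjusted p = 2.9e-07, limma). It also passed per kb (3.20, adjusted p = 0.00142). Rps6ka1 was lowest, with 17, 17 and 33 counts. Mapk7, which encodes ERK5 and was chosen after its values were seen, was the 1 gene below, at 4.28 ± 3.06 CPM (adjusted p = 0.0223). Leaving out replicate 1 ended that call (adjusted p = 0.0709), as did leaving out replicate 3 (0.465), and without replicate 2 the gene was not tested.

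Of the genes known to regulate Bdnf transcription, 7 of 13 tested lay above and 1 below, with a median level of 2.52, and 3 above and 1 below per kb. Crebbp, the coactivator of CREB, had 622 ± 642 CPM, and Mef2a 425 ± 140 CPM; both passed (adjusted p = 4.2e-05 and 1.41e-05, limma), but neither did per kb (0.0625 and 0.0709). The SD of Crebbp exceeded its mean. The 1 gene below was Npas4, an activity-induced activator of Bdnf, chosen after its values were seen. It had 15, 22 and 14 counts (level -4.11, adjusted p = 0.00013), a call kept without each replicate. It also passed per kb (adjusted p = 0.00692), but not without replicate 3 (0.0608). Usf1 had 0, 22 and 0 counts.

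Genes that BDNF is known to induce numbered 2 of 7 tested above and 0 below, with a median level of -1.54. Without replicate 2, and with libraries thinned to the smallest, 0 of them lay above. Egr1 and Homer1 passed, at levels of 2.32 and 2.25 (adjusted p = 0.0324 and 0.0301, limma). The Egr1 call ended without replicate 2 (adjusted p = 0.1), and that of Homer1 when either replicate 2 or replicate 3 was left out (adjusted p = 0.247 and 0.0886). Arc had 101 ± 111 CPM and did not pass (adjusted p = 0.758), and Fos had 0, 36 and 0 counts. The summed level of the 12 listed genes was 740, 353 and 350 CPM in replicates 1 to 3, highest in replicate 1. Egr1 (334, 129 and 83.3 CPM) and Arc (227, 20.7 and 54.0 CPM) made up most of it there. Bdnf stood apart in replicate 3 and this sum, through Egr1 and Arc, in replicate 1.

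Other trophic systems are given beside the family. Of the other growth factor receptors, 2 of 15 tested (29 listed) lay above and 0 below, with a median level of 0.28, where 14.1% of all tested genes lay above. They were Igf1r at 328 ± 128 CPM and Epha4 at 294 ± 180 CPM (adjusted p = 0.000122 and 0.000995, limma). Neither passed per kb (adjusted p = 0.379 and 0.0553), nor did Ntrk2. Per kb, 0 of the 15 receptors lay above and 2 below. Flt1, which is also a vascular marker, had 73, 2058 and 2648 counts, and Musk 0 in each library. Of the other growth factors, 2 of 14 lay above and 0 below, with a median level of -0.26: Igf2 at 361 ± 241 CPM and Fgf13, a non-secreted relative of the fibroblast growth factors, at 220 ± 142 CPM (adjusted p = 0.000297 and 0.00772). The Fgf13 call ended without replicate 2 (adjusted p = 0.248). Per kb both passed (adjusted p = 0.00447 and 0.0069), Fgf13 again not without replicate 2 (0.152). Nrg3 had 131 ± 127 CPM (adjusted p = 0.319), and Cntf 0 counts in each library.

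**Figure D5:**
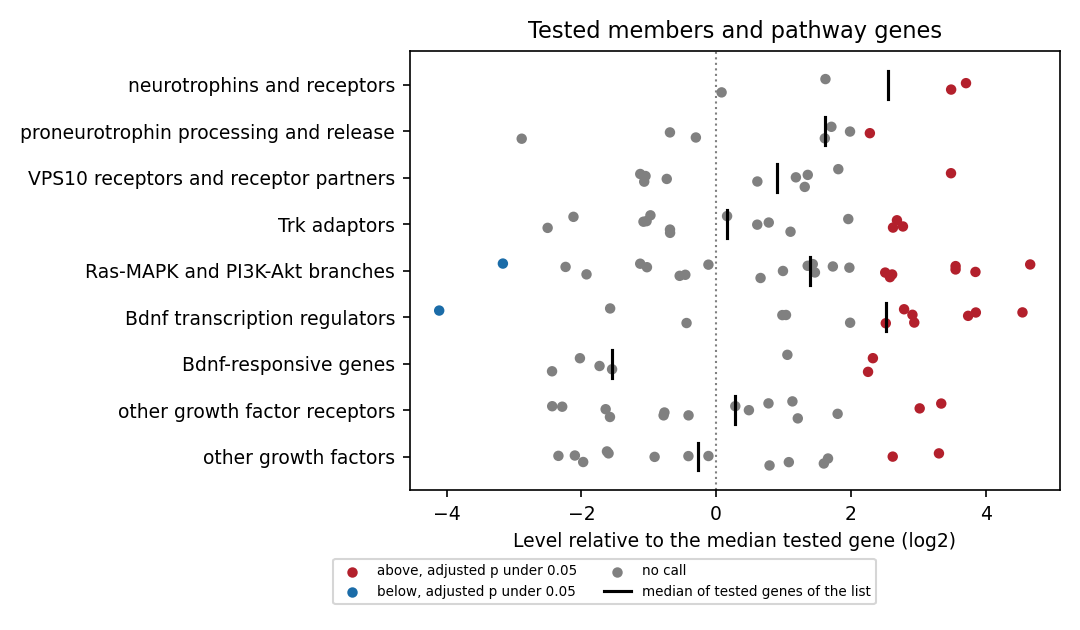
Level of each tested gene of the 8 lists against the median gene (log2 CPM difference), with the members of the neurotrophin family beside them; red points lay above and blue points below by the test, grey points did not pass, and black bars mark list medians. The Ras-MAPK and PI3K-Akt branches and the Bdnf regulators each had 7 genes above, and Npas4 was lowest at -4.11.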

How the data were processed

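Ribosome-bound RNA of 3 libraries (1 group) was measured. The authors deposited whole-number read counts per gene symbol, 1 file per library; STAR 2.0.0e, HTSeq and mm10 are named, per the submitters' processing notes. For the annotation and the strand setting of the counting: not given in the sources used here. Summary lines of the counter were left out; reads on genes made up 16.3, 38.2 and 21.1% of those listed, reads without a feature 50.7, 35.4 and 40.5%.

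From the counts, TMM factors (0.793, 1.19 and 1.06) and log2 CPM with a prior count of 2 were obtained with edgeR 4.0.16 (R 4.3.3) from the 8510 genes that passed filterByExpr. Levels against the library's median gene were tested with limma 3.58.1 (trend, TREAT, log2 threshold 1, Benjamini-Hochberg over all tested genes, threshold 0.05, two-sided). Lengths and coordinates are those of GENCODE vM21 (GRCm38), possibly another annotation than the authors counted with; 92.9% of tested genes had a length. Spread was tested with a Poisson chi-square test on genes with at least 10 counts. The tests were tested on simulated data. Named were all members, the 3 highest and the 1 lowest gene of each list by mean CPM, and the 2 most similar genes per tested member; some genes named by this rule are not reported here. Members and lists were chosen with earlier results of these data known. Alternatives were DESeq2 1.42.0 size factors, other filters, a prior count of 0.5, an edgeR quasi-likelihood version of the test, thinned libraries, other lengths and each replicate left out. Marker sums without their highest gene were added after seeing the data. Figures were drawn with matplotlib 3.10.9.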

Additional observations from a re-analysis of the deposited data

How the results depend on the processing

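No paired analysis was possible because there is 1 group. The calls of Ntrk2 and Sort1 held in each alternative run on their level, and that of Sort1 per kb in each run on that. DESeq2 size factors and a prior count of 0.5 changed no call of a member. Testing every gene with a count moved the median gene down, and then 24.0% of all genes lay above, and so did 4 members: Bdnf at 2.83 (adjusted p = 0.0226, limma) and Ntrk3 at 4.37 (adjusted p = 1.1e-05) were added. Pathway genes then numbered 61 above and 10 below, of 140 tested. With at least 10 counts in total, Ntrk3 lay at 3.62 (adjusted p = 0.000145, limma). Of 136 pathway genes tested, 57 then lay above and 10 below, where 21.8% of all tested genes lay above. The edgeR version put 1 pathway gene below. Thinned to the smallest library, Bdnf lay at -0.28 (adjusted p = 0.997). With the longest transcript or the longest protein-coding transcript, a length added after seeing the data, Sort1 minus Ntrk2 was 0.58; only the length differed.

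With each replicate left out in turn, the level of Bdnf ran from -0.43 to 1.20 and per kb from -0.71 to 0.85, that of Ntrk3 from 1.67 to 2.11, and Ntf3 minus Ngfr per kb from -1.78 to 4.10. The chi-square of Bdnf ran from 0.0224 to 483 and that of Ntrk3 from 1.48 to 256. Pathway genes above ran from 17 to 40, where 11.4 to 19.1% of all tested genes lay above, and those below from 2 to 5. Per kb, pathway genes above ran from 10 to 23, where 7.26 to 14.6% of all tested genes lay above. The cause of these shifts was not tested. By counting error alone, a count of 0 allowed up to 0.707 CPM of Ntf3 in replicate 1 and up to 0.257 CPM of Ntf3 or Ngfr in replicate 3.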
